A study of Mus musculus with 20 samples.

Results

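The 9 transient receptor potential (TRP) channel genes of sensory neurons described here, Trpv1, Trpa1, Trpm8, Trpm3, Trpm2, Trpv2, Trpc5, Trpc1 and Trpm4, were followed in RNA-seq libraries of mouse lumbar dorsal root ganglia. The genes were chosen by name as TRP channels known from sensory ganglia, and all 9 of 9 were found among the 55416 genes counted. All 9 passed the filter on low counts. The study asked which genes change in the ganglia when the transcription factor Prdm12 is deleted in the adult, with and without a formalin injection.

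TRP channels are cation channels of the plasma membrane that open to temperature, chemical irritants or lipid signals and depolarise the nerve ending. In the ganglion, TRPV1 is known for its opening by heat and capsaicin, TRPA1 for its opening by reactive irritants including formalin itself, and TRPM8 for its opening by cooling and menthol. TRPM3 and TRPM2 are further heat- or warmth-sensitive channels, TRPC5 has been linked to cold sensing, and TRPV2, TRPC1 and TRPM4 are more widely expressed members of the family. PRDM12 is a transcription factor of nociceptors, the neurons in which several of these channels are found.

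All mice were adults on a C57Bl6 background and carried floxed Prdm12 alleles (P12 Fl/Fl), and both groups received tamoxifen (TAM), 1 month before the ganglia were taken. The inducible conditional knockout (icKO) group also carried a tamoxifen-activated Cre, which the sample labels call AdvCreERT2 and the series description Rosa26CreERT2. The first name would place Cre in sensory neurons and the second in all cells, so the records do not settle which cells of the ganglion could recombine. Each of the 10 animals, 5 titled control and 5 titled icKO, gave 1 noninjected library and 1 formalin library. Those titled control 1 and 2 and icKO 1, 2 and 3 were female and the others male. For the formalin libraries the dose, the injected site and the time to dissection were not given in the sources used here, and each animal is taken to be an independent replicate because each carries its own number in the titles.

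Genotype was recorded in 2 places, the sample title and the genotype word in the name of the deposited table, and the records differ for 4 of the 10 animals. By deposited name the controls are the animals titled control 2, 3 and 5 and icKO 2 and 3, and the icKO animals are those titled control 1 and 4 and icKO 1, 4 and 5. Prdm12, the targeted gene, went with the deposited name. Levels are given as CPM, counts per 1000000 counts of a library scaled by the TMM method. The noninjected libraries named control held 98.8, 77.5 and 96.2 (titled control 2, 3 and 5) and 74.7 and 81.4 (titled icKO 2 and 3). Those named icKO held 23.1 and 38.1 (titled control 1 and 4) and 23.6, 22.2 and 23.3 (titled icKO 1, 4 and 5). The formalin libraries named control held 105, 92.5, 100, 73.1 and 114 CPM, and the 4 named icKO held 28.2, 26.0, 15.7 and 14.4 CPM. No library named icKO reached the lowest named control, in either condition. Over animal totals the difference was -1.94 on the log2 scale by deposited name (exact two-sided permutation test, p = 0.00794, the smallest that 252 splits can give) and -0.72 by title (exact permutation p = 0.238). The deposited name is therefore the grouping used here, and Trpv1 is also given by title. The 7 listed genes beside Avil, the advillin gene, summed to 484 to 520 CPM in noninjected libraries named icKO and 208 to 226 in those named control. In formalin libraries their sums were 482 to 516 and 198 to 216 CPM. That list was taken from an earlier result on these data, and which Cre the animals carried was not tested.

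**Figure D1:**
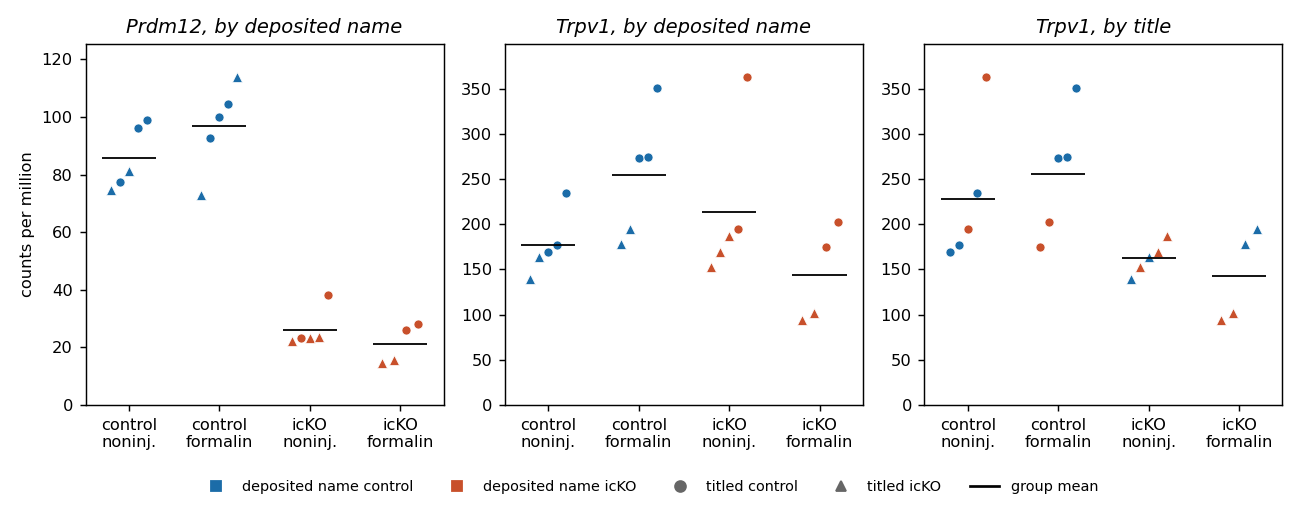
Prdm12 by deposited name, Trpv1 by deposited name and Trpv1 by title, in CPM for each of the 19 libraries (points; colour is the deposited name, shape the title, black line the group mean). Prdm12 separates the deposited names without overlap, at 14.4 to 38.1 against 73.1 to 114 CPM.

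The 19 libraries used held 11763893 to 22392635 counts. The formalin library of the animal titled icKO 1 held 2829 counts and was left out, so the icKO formalin group by deposited name has 4 libraries and the other 3 groups have 5. Of those 4, the library titled control 1 came from a female and the others from males. The 10 general sensory neuron markers summed to 7154 to 12012 CPM in the libraries named icKO and 8452 to 11092 CPM in those named control, so neuronal RNA was present in all 19. The 4 icKO formalin libraries also reached higher sums of markers of other cells. Their 6 red cell markers summed to 377 to 1707 CPM against 132 to 312 in the control formalin libraries, without overlap. Their 9 neutrophil markers summed to 638 to 2884 against 162 to 751, ranges that overlapped. Their 9 skeletal muscle markers summed to 10.6 to 1748 against 10.2 to 26.0, which also overlapped. In noninjected libraries the red cell markers summed to 218 to 764 CPM in icKO (median 635) and 136 to 343 in control (median 205). The highest red cell and muscle sums were in the library titled icKO 5. In bulk tissue, fewer cells of a type and less RNA per cell cannot be told apart.

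The promoters of the 3 members on which the comparisons below turn are shown first, because the data bear on how each gene's transcript level moved. Promoter entries were found for 7 of the 9 members in the RefSeq-derived table (mouse build GRCm38.p6), and each sequence below is the 250 bases before the annotated start, 5′ to 3′ on the gene's strand. Capitals mark some of the matches to the 6 motifs searched: in Trpv1, a CCAAT box in reverse (ATTGG) next to the RUNX core TGTGGT, and in Trpm8 the homeodomain core TAATTA and the TATA box TATAAA. The CCAAT box and the E-box of Trpm8 are left in lower case. Trpc5 held none of the 6 motifs.
Trpv1, chr11:73233899-73234148, plus strand: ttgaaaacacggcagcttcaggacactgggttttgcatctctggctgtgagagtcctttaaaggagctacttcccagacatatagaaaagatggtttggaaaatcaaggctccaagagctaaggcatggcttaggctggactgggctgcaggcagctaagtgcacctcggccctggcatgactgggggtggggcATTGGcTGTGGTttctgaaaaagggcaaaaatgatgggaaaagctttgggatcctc
Trpm8, chr1:88306485-88306734, plus strand: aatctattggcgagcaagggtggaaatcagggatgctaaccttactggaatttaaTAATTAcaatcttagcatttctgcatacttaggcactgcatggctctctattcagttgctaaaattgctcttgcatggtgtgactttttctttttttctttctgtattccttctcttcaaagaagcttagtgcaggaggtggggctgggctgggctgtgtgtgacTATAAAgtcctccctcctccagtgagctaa
Trpc5, chrX:144688181-144688430, minus strand: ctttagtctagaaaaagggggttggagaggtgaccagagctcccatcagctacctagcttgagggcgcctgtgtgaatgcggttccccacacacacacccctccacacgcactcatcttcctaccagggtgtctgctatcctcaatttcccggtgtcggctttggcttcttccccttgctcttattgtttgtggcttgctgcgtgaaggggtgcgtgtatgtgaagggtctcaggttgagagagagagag

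The motifs were searched on both strands in the same 250 bases of all 32851 promoter entries, and they were chosen after the members' matches had been seen. The RUNX core TGTGGT, letters read by the RUNX factors of sensory neurons, was in 14.0% of promoters and among the members in Trpv1 and Trpm3. In Trpv1 it began 50 bases before the start. The homeodomain core TAATTA was in 4.84% of promoters and among the members in Trpm8 alone of the 7 with an entry, beginning 195 bases before the start. The TATA box TATAAA was in 12.4% and among the members in Trpm8, beginning 30 bases before the start, and in Trpm2. CCAAT was in 33.8% (Trpv1, Trpm3 and Trpm8) and the E-box CANNTG in 66.2% (Trpm8, Trpm3, Trpm2, Trpv2 and Trpc1). TGACGTCA, the cyclic AMP response element, was in 1.55% and in no member. The GC content was 42.8% in Trpm8, 50.8% in Trpv1 and 54.4% in Trpc5, against a median of 52.4% over all entries, and Trpc5 held 7 CG pairs against 2 in Trpv1 and 1 in Trpm8. A match is only a run of letters and says nothing of binding in these ganglia.

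Trpv1 was the most abundant member in intact ganglia. Scaled to the longest coding transcript, its level in the 5 noninjected libraries named control was 52.6 ± 10.5 CPM per kilobase (SD, n = 5). Trpv2 followed at 29.5 ± 1.69 and Trpa1 at 19.9 ± 2.10 CPM per kilobase, and the ranges of these 3 genes over libraries did not overlap. Trpm8 (12.2 ± 1.87), Trpm4 (10.1 ± 1.15) and Trpc1 (9.90 ± 1.02) formed a middle set whose neighbours overlapped in range. Trpm3 (6.80 ± 0.711) lay above Trpm2 (4.93 ± 0.577) in 5 of 5 libraries although their ranges over libraries overlapped. Trpc5 was lowest by far, at 0.371 ± 0.141 CPM per kilobase. The order depends on the length chosen for genes with several isoforms: with the union of all annotated exons, Trpa1 moved ahead of Trpv2 and Trpc1 ahead of Trpm4.

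Counts behind these levels differed widely. Trpv1 had 1814 to 7903 counts per library and the 7 other abundant members between 254 and 2123, whereas Trpc5 had 8 to 100, so counting error alone is large for Trpc5. The libraries were made without strand information. Trpm8 shares exonic sequence with an antisense gene and Trpm3 with 2 genes of the opposite strand. Reads from the shared sequence cannot be assigned by strand, and whether they were counted or dropped was not given. Exons of Trpm2 overlap 2 small nucleolar RNA genes. Trpv1, Trpa1, Trpv2, Trpc5, Trpc1 and Trpm4 share no exonic sequence with another annotated gene.

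**Figure D2:**
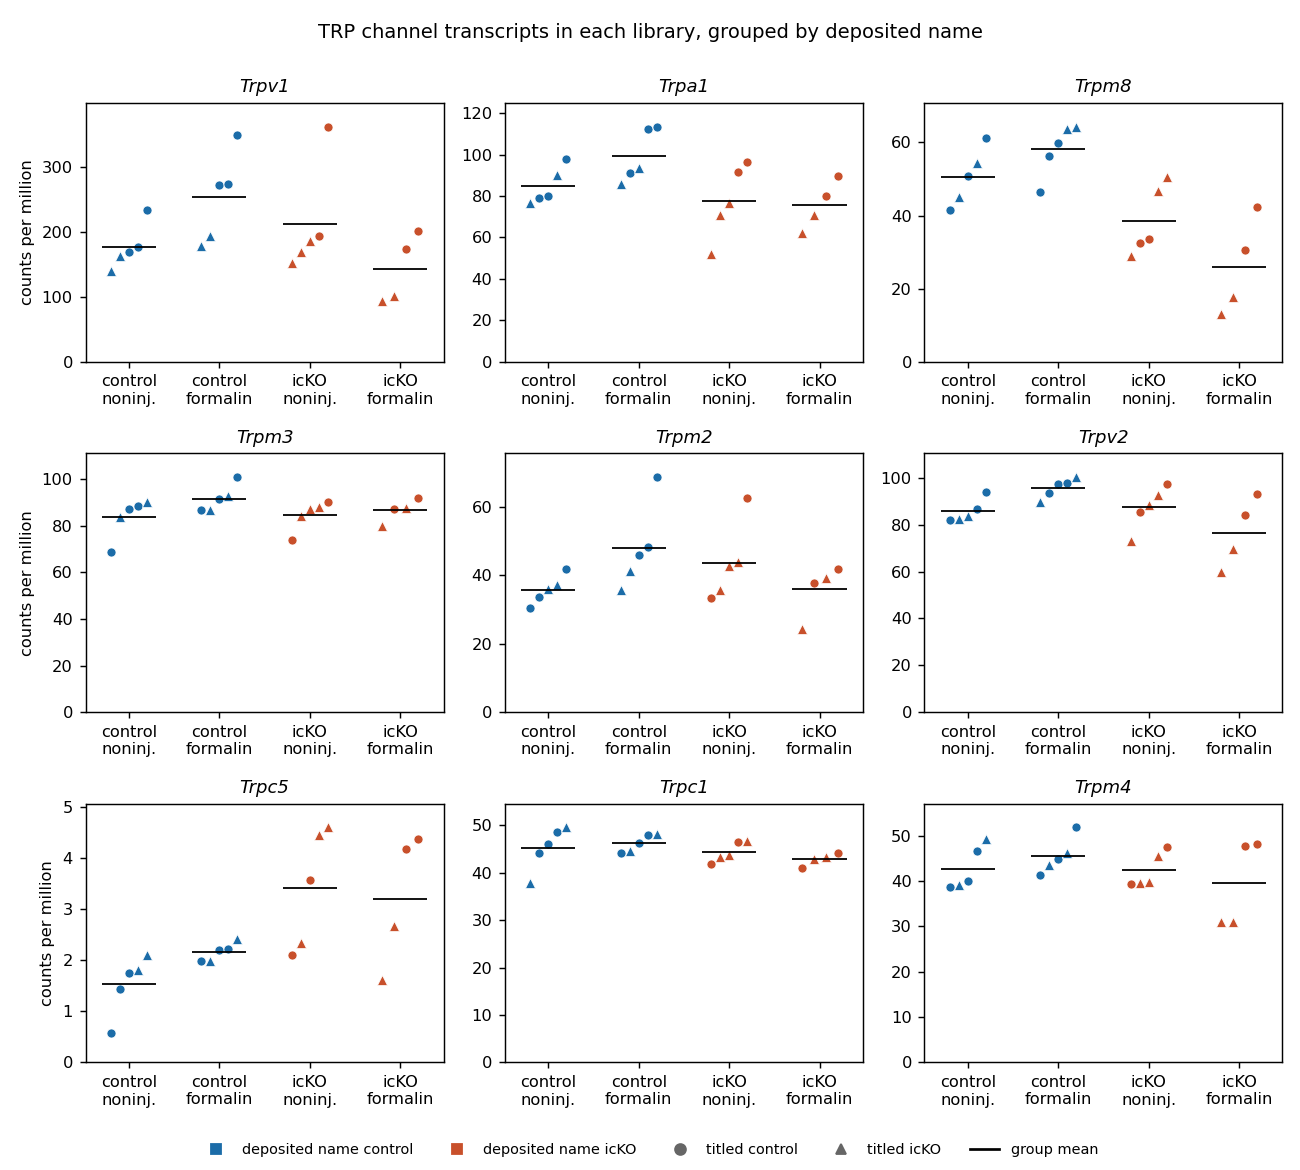
CPM of the 9 members in each of the 19 libraries, grouped by deposited name and injection (colour is the deposited name, shape the title, black line the group mean). Trpm8 in the formalin libraries named icKO (13.1 to 42.4 CPM) lies below all formalin libraries named control (46.5 to 64.3 CPM), and Trpc5 is at 2.11 CPM or above in all noninjected libraries named icKO.

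The comparison of noninjected ganglia asks which channels differ in icKO ganglia when no injury is given. Prdm12 transcript was reduced there but not absent, at a mean of 26.1 CPM against 85.7 CPM in control. By deposited name, edgeR called 1504 of 17931 genes (8.39%), 863 higher and 641 lower in icKO. Of the 9 members 1, Trpc5, passed the test. Trpc5 encodes a receptor-operated cation channel. It was at 1.43, 0.587 and 1.76 CPM in the libraries titled control 2, 3 and 5 and at 2.11 and 1.82 CPM in those titled icKO 2 and 3, all named control. In the libraries named icKO it was at 3.58 and 2.11 CPM (titled control 1 and 4) and at 4.61, 4.46 and 2.35 CPM (titled icKO 1, 4 and 5). The groups did not overlap, a property of 8.24% of all genes, but they met at 2.11 CPM, the highest control and the lowest icKO value. Trpc5 was higher in icKO by 1.21 on the log2 scale (SE 0.28, edgeR quasi-likelihood test, adjusted p = 0.0169, n = 5 and 5). The call was lost without the animal titled control 2 (adjusted p = 0.0507), icKO 1 (0.0639) or control 3 (0.0632), and by title (log2 difference 0.63, adjusted p = 0.633).

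The other 8 members did not pass the test in noninjected ganglia. Their median log2 difference with Trpc5 included was 0.03, against -0.01 over all genes. Trpm8 differed by -0.32 (SE 0.21), with 29.0 to 50.5 CPM in icKO and 41.5 to 61.2 CPM in control. Trpv1 differed by 0.25 (SE 0.28), with 363 CPM in the library titled control 4 and 152 to 195 CPM in the other 4 named icKO, against 140 to 235 CPM in those named control. Trpm2, a channel opened by ADP-ribose and warmth, differed by 0.24 (SE 0.19) and was also highest in the library titled control 4, at 62.7 CPM. The differences of Trpa1 (-0.13), Trpm3 (0.03), Trpv2 (0.04), Trpc1 (-0.03) and Trpm4 (0.00) had standard errors of 0.07 to 0.14. Scaled to the general sensory neuron markers, an alternative added after the data were seen, the median of all genes moved by -0.21 and the calls to 226 higher and 2194 lower, while Trpc5 kept its call (0.99, adjusted p = 0.0283).

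In the formalin ganglia the member that differed was Trpm8. Here edgeR called 697 of 17931 genes (3.89%), 511 higher and 186 lower in icKO, and 1 of the 9 members passed. Trpm8, the menthol and cold channel, was at 59.9, 46.5 and 56.2 CPM in the libraries titled control 2, 3 and 5 and at 64.3 and 63.5 CPM in those titled icKO 2 and 3, all named control. The libraries named icKO held 42.4 and 30.7 CPM (titled control 1 and 4) and 13.1 and 17.7 CPM (titled icKO 4 and 5). All 4 were below all 5 control libraries, which was so for 5.79% of all genes in either direction. The log2 difference was -1.07 (SE 0.23, edgeR quasi-likelihood test, adjusted p = 0.0233). The 2 lowest values came from the libraries with the highest red cell sums (1469 and 1707 CPM). Without those 2 libraries Trpm8 differed by -0.65 and did not pass (adjusted p = 0.201), an alternative added after the data were seen.

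The Trpm8 call also depended on single animals and on the fit. It was lost without the animal titled icKO 3 (adjusted p = 0.0691), control 3 (0.102), control 5 (0.140), icKO 4 (0.0515) or icKO 5 (0.0640), with the difference between -0.88 and -1.09. It was also lost in a fit of the formalin libraries alone (adjusted p = 0.185), and grouping by title gave -0.48 (adjusted p = 0.547). Scaled to the general sensory neuron markers the median of all genes moved by 0.19, the calls became 720 higher and 52 lower, and Trpm8 kept its call at -0.91 (adjusted p = 0.0259). The 2 markers listed for cold thermoreceptor neurons, Foxp2 and Cdh8, summed to 30.3 to 44.2 CPM in icKO formalin libraries and 30.2 to 38.1 CPM in control ones, and neither passed. The general sensory neuron markers summed to 7154 to 10226 CPM in icKO formalin libraries, against 9447 to 11092 CPM in control ones. The part of neuronal and non-neuronal content in the Trpm8 difference was not tested.

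None of the other 8 members passed in formalin ganglia: 7 had negative differences and Trpc5 a positive one, with Trpm3 and Trpc1 also positive under the neuron-marker scaling. Trpv1 was at 273, 275 and 350 CPM (titled control 2, 3 and 5) and at 178 and 194 CPM (titled icKO 2 and 3) in the libraries named control. It was at 202 and 175 CPM (titled control 1 and 4) and at 102 and 94.4 CPM (titled icKO 4 and 5) in those named icKO. The groups overlapped, because the highest icKO value lay above the lowest pair of control values, and the log2 difference was -0.84 (SE 0.29, adjusted p = 0.130). Without the animal titled control 1, named icKO, the difference was -1.17 and passed (adjusted p = 0.0430), as did those of Trpa1 (-0.59, adjusted p = 0.0281) and Trpv2 (-0.43, adjusted p = 0.0266). In that fit the calls over all genes rose from 697 of 17931 to 1485 of 17819.

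Trpa1 held 62.2 to 89.5 CPM in the icKO formalin libraries and 85.8 to 113 CPM in the control ones, a difference of -0.40 (SE 0.15, adjusted p = 0.159). Trpm2 (-0.46), Trpv2 (-0.31) and Trpm4, a calcium-activated channel for monovalent cations (-0.19), had negative differences that did not pass. Trpc5 was at 1.61 to 4.38 CPM in icKO and 2.00 to 2.42 CPM in control (0.69, SE 0.29, adjusted p = 0.210). Trpc1, a subunit that joins other TRPC channels, was at 41.0 to 44.1 CPM in icKO and 44.2 to 48.0 CPM in control. These groups nearly met but did not overlap, as was so for 5.79% of all genes. Its difference was small, -0.12 (SE 0.07, adjusted p = 0.421). Trpm3 differed by -0.05 (SE 0.08). The members' median was -0.31, against -0.01 over all genes, and the sensory neuron markers had a median of -0.10.

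**Figure D3:**
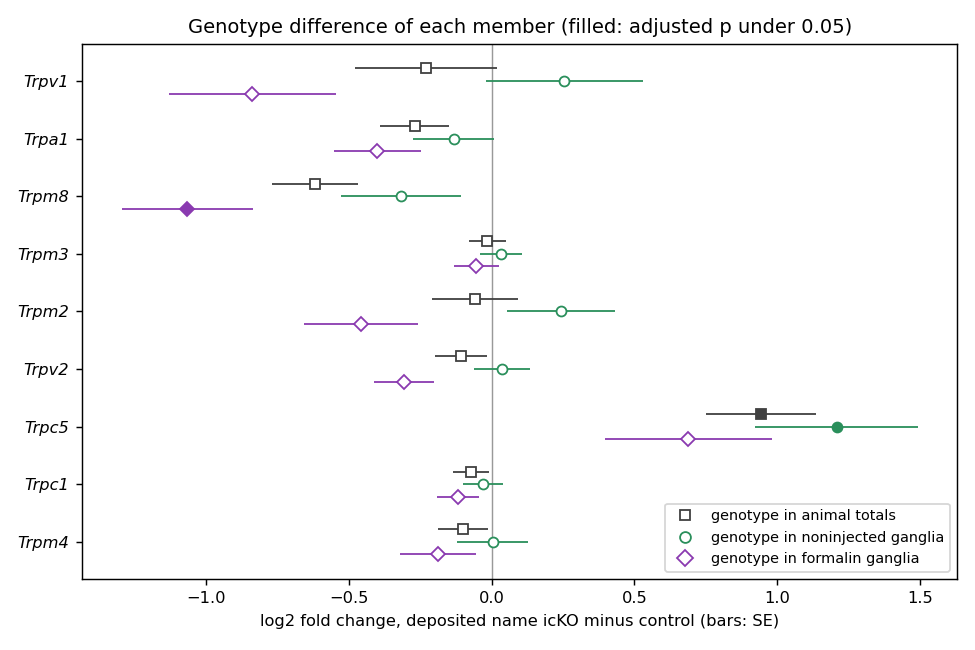
Log2 fold change of each member, icKO minus control by deposited name, in animal totals, noninjected ganglia and formalin ganglia (points; bars are standard errors; filled points passed the adjusted p threshold of 0.05). The passing points are Trpc5 in animal totals (0.94) and noninjected ganglia (1.21) and Trpm8 in formalin ganglia (-1.07).

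Summing both libraries of each animal gives 1 value per animal and 10 animals. In these totals 209 of 19441 genes (1.08%) were called, and again 1 of the 9 members, Trpc5. It was at 1.77, 1.23 and 1.97 CPM (titled control 2, 3 and 5) and at 2.03 and 2.13 CPM (titled icKO 2 and 3) in animals named control. In those named icKO it was at 4.02 and 2.93 CPM (titled control 1 and 4) and at 4.62, 3.35 and 1.93 CPM (titled icKO 1, 4 and 5). The groups overlapped through the animal titled icKO 5 (groups were without overlap for 4.06% of all genes), and 4 of 5 icKO animals were above all controls. The difference was 0.94 (SE 0.19, adjusted p = 0.0406). This call was close to the threshold: it was lost when any 1 animal other than those titled control 5 and icKO 5 was left out (adjusted p between 0.0619 and 0.168), without the sex term (0.101), with the neuron-marker scaling (0.0619), by title (0.902) and in the 6 animals whose records agree (0.181). The difference stayed between 0.87 and 0.95 in those fits that left out an animal and lost the call.

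Trpm8 totals were 60.3, 43.7 and 53.0 CPM (titled control 2, 3 and 5) and 55.4 and 59.0 CPM (titled icKO 2 and 3) in animals named control. They were 38.4 and 31.4 CPM (titled control 1 and 4) and 50.6, 19.1 and 30.6 CPM (titled icKO 1, 4 and 5) in animals named icKO. The icKO animal titled icKO 1, which has no formalin library, lay within the control range. The difference of -0.62 (SE 0.15) did not pass in edgeR (adjusted p = 0.0873) and passed in DESeq2 (adjusted p = 0.00834). Trpm8 also passed in edgeR without the animal titled icKO 1 (-0.75, adjusted p = 0.0457).

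Trpv1 and Trpc5 both read differently by the other genotype record. For Trpc5 the difference in totals was 0.94 by deposited name and 0.14 by title, and in formalin ganglia 0.69 by deposited name and -0.50 by title, the latter pair not passing by either record. Trpv1 totals were 198, 251, 221, 282 and 254 CPM in the animals titled control 1 to 5 and 187, 160, 179, 127 and 120 CPM in those titled icKO 1 to 5. By title the groups did not overlap, which held for 1.27% of all genes, and the log2 difference of Trpv1 was -0.69 (SE 0.14), which did not pass over all genes (adjusted p = 0.399). No gene was called by title in animal totals with edgeR (0 of 19441, 1815 at an unadjusted p under 0.05), Prdm12 included. By deposited name the same 10 totals overlapped and the difference was -0.23 (SE 0.25, adjusted p = 0.676). In the 6 animals whose records agree (titled control 2, 3 and 5 and icKO 1, 4 and 5), Trpv1 was lower by 0.78 and passed (-0.78, SE 0.12, adjusted p = 0.0450; 171 of 19063 genes, 0.897%).

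Within those 6 animals the formalin libraries separated the members most. There 1615 of 17669 genes (9.14%) and 5 of the 9 members were called, all 5 lower in icKO: Trpm8 (-1.69), Trpv1 (-1.55), Trpa1 (-0.69), Trpv2 (-0.55) and Trpm4 (-0.55). These 2 icKO formalin libraries are the ones titled icKO 4 and 5, with the red cell sums given above. In the noninjected libraries of the same animals 831 genes (4.70%) were called and Trpc5 was the member among them (1.57, SE 0.37, adjusted p = 0.0349), while Trpv1 differed by -0.17 (SE 0.13). By title over all 10 animals Trpv1 held 169 to 363 CPM in noninjected libraries titled control and 140 to 187 CPM in those titled icKO, and 175 to 350 against 94.4 to 194 CPM in formalin libraries. Both pairs of ranges overlap, where 0.764% of genes in noninjected and 1.76% in formalin libraries had titled groups without overlap. In the 6 animals the formalin difference within icKO called 448 genes (2.54%), among them Trpm8 (-1.33, adjusted p = 0.0296) and Trpv1 (-0.74, adjusted p = 0.0404).

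The formalin libraries were then compared with the noninjected libraries within each genotype. In animals named control no gene was called (0 of 17931 with edgeR, 686 at an unadjusted p under 0.05, 0 with DESeq2). All 9 members had positive differences, with a median of 0.20, against 0.00 over all genes and 0.12 for the sensory neuron markers. With the neuron-marker scaling 7 of the 9 stayed positive, Trpc1 and Trpm4 turning negative. Within animals, Trpv1 was higher after formalin in 5 of 5, by 0.22, 0.63 and 1.05 on the log2 scale (titled control 2, 3 and 5) and by 0.35 and 0.25 (titled icKO 2 and 3). Trpv2 was also higher in 5 of 5, by 0.05 to 0.28. The main fit had no animal term and so did not use the pairing. Its differences were 0.52 (SE 0.27) for Trpv1, 0.50 (SE 0.29) for Trpc5, 0.40 (SE 0.19) for Trpm2, 0.22 (SE 0.14) for Trpa1 and 0.20 (SE 0.21) for Trpm8, each with an adjusted p of 0.951. With the animal as a fixed block Trpv1 differed by 0.50 (SE 0.15, edgeR adjusted p = 0.529).

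In animals named icKO no gene was called either (0 of 17931 with edgeR, 4170 at an unadjusted p under 0.05, 1120 with DESeq2). Here 8 of the 9 members had negative differences, with a median of -0.10, and only Trpm3, the pregnenolone sulfate and heat channel, was positive (0.05). The median was 0.02 over all genes and -0.17 for the sensory neuron markers. With the neuron-marker scaling 6 of 9 were positive, Trpv1, Trpm8 and Trpm2 remaining negative, Trpm3 passed (0.32, adjusted p = 0.0399), and the median of all genes moved by 0.28. Trpv1 differed by 0.06 and -1.05 in the animals titled control 1 and 4 and by -0.73 and -0.69 in those titled icKO 4 and 5. The fitted Trpv1 difference was -0.58 without an animal term (SE 0.29, adjusted p = 0.241). With the animal as a fixed block it was -0.61 (SE 0.17, edgeR adjusted p = 0.183). Trpm8 differed by -0.55 without an animal term (SE 0.23, adjusted p = 0.163), and it ranged from -1.38 to 0.34 over the 4 animals.

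**Figure D4:**
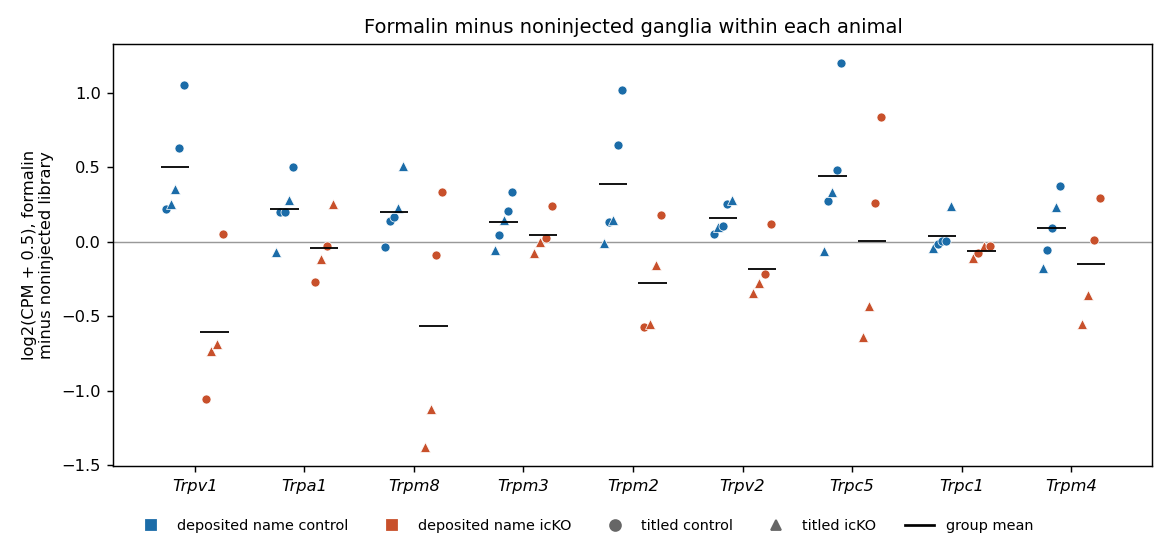
Formalin minus noninjected library of the same animal, on the log2(CPM + 0.5) scale, for each member in the 9 animals with both libraries (colour is the deposited name, shape the title, black line the group mean). Trpv1 was between 0.22 and 1.05 in the 5 animals named control and between -1.05 and 0.06 in the 4 named icKO.

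The difference between these responses was tested as an interaction, which called no gene (0 of 17931 with edgeR, 4201 at an unadjusted p under 0.05, 850 with DESeq2). All 9 members had negative values, with a median of -0.34, against 0.03 over all genes and -0.34 for the sensory neuron markers. Under the neuron-marker scaling 5 of the 9 turned positive (Trpa1, Trpm3, Trpv2, Trpc1 and Trpm4) and the median of all genes moved by 0.40. Trpv1 had the most negative value, -1.09 (SE 0.40, unadjusted p = 0.0142, edgeR adjusted p = 0.139). With the animal as a fixed block it was -1.11 (SE 0.23, adjusted p = 0.0923). The per-animal Trpv1 responses of the 2 groups did not overlap, as was the case for 6.40% of all genes, and Trpv1 was the member for which this held. Trpm8 (-0.75), Trpm2 (-0.70), Trpc5 (-0.52), Trpv2 (-0.34), Trpa1 (-0.27), Trpm4 (-0.19), Trpc1 (-0.09) and Trpm3 (-0.09) followed.

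Interaction calls appeared when 1 animal was left out. Without the animal titled control 1, 1762 of 17819 genes were called. Trpv1 (-1.39, adjusted p = 0.0476), Trpm8 (-1.08, adjusted p = 0.0367) and Trpv2 (-0.48, adjusted p = 0.0447) were among them. That animal was the 1 named icKO in which Trpv1 was not lower after formalin, so for Trpv1 this fit removes the contrary value. Leaving out any other single animal gave no interaction call. In the 6 animals whose records agree Trpv1 passed at -1.38 (adjusted p = 0.0362), 1 of 9 members with 0.368% of all genes called. Without the formalin libraries titled icKO 4 and icKO 5, no gene was called. That fit had no animal term and set the 2 remaining icKO formalin libraries against all 5 icKO noninjected ones.

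The rest of the TRP family and the proteins that act with these channels were described from 2 lists. Of 18 other TRP channel genes 13 passed the low-count filter. In noninjected ganglia, where 8.39% of all genes were called, 2 of the 13 were lower in icKO: Trpm7, a channel-kinase that carries magnesium (-0.25, SE 0.08, adjusted p = 0.0469), and Trpc6, a diacylglycerol-gated channel (-0.49, SE 0.11, adjusted p = 0.0165). Trpc6 was at 15.1 to 22.3 CPM in icKO and 24.2 to 28.8 CPM in control, without overlap, as were 8.24% of all genes. None of the 13 passed in animal totals or in a comparison of formalin with noninjected libraries. Their median was -0.32 in noninjected ganglia and -0.10 in formalin ganglia. With the neuron-marker scaling the latter was 0.06, and with relative-log-expression (RLE) scaling Trpm7 did not pass in noninjected ganglia.

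Of 17 partners and regulators, all tested, 3 passed in noninjected ganglia, against the same 8.39% of all genes. Tmem100, an adaptor that modulates the TRPA1-TRPV1 complex, was lower in icKO (-0.45, SE 0.10, adjusted p = 0.0139) and was the 1 partner that also passed in animal totals (-0.40, adjusted p = 0.0429; 1.08% of all genes), a call lost with the neuron-marker scaling. Cdk5r1, the activator of the kinase CDK5 (0.49), and Prkce, protein kinase C epsilon (0.45), were higher. With the neuron-marker scaling neither of these 2 passed in noninjected ganglia, while Tmem100 did. In formalin ganglia all 17 had negative differences with a median of -0.18, against 9 of 17 and a median of -0.01 with the neuron-marker scaling. Gfra3, the artemin receptor, fell by 1.24 on the log2 scale (-1.24, SE 0.31, adjusted p = 0.0416), with 21.1 to 44.5 CPM in icKO and 62.0 to 92.8 CPM in control. Gfra3 lost its call under the neuron-marker scaling.

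Across the 10 animal totals the genes whose log2 CPM followed each member most closely were taken from 13532 named genes. This is a description with no test, since the animals share genotype and sex. Being the highest of 13532 over 10 animals, the correlations are raised by the selection itself. The total of the animal titled icKO 1 holds its noninjected library only. Trpv1 was followed by Carmil3 (Pearson r 0.972, Spearman rho 0.939), Rxrg (0.963, 0.903) and Crhr2 (0.961, 0.952). Trpm8 was followed by Plcd4, a phospholipase C (0.972, 0.964), Abcc3 (0.932, 0.770) and Gng4 (0.925, 0.952). Trpc5 was followed by Tmod1 (0.967, 0.976), Dnmt1 (0.958, 0.903) and Rad50 (0.958, 0.939). The closest gene was Psmd7 for Trpa1 (0.964), Dync2h1 for Trpm3 (0.937), Tor1a for Trpm2 (0.899), Wdr1 for Trpv2 (0.982), Hgf for Trpc1 (0.962) and Fpgs for Trpm4 (0.987). Without the 2 animals farthest from the member's median, r was 0.935 for Carmil3, 0.984 for Plcd4, 0.941 for Tmod1, 0.670 for Tor1a and 0.886 for Wdr1.

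The members were also compared with each other over libraries, separately in the 10 noninjected and 9 formalin libraries, which gave 72 relations. None passed after adjustment over the 72. The permutations shuffled libraries across genotype and sex, so their p-values can also take in differences between those groups. The closest was Trpv1 with Trpa1 in formalin libraries (Pearson r 0.931, exact permutation p = 0.000791, adjusted p = 0.0563; Spearman rho 0.883, exact permutation p = 0.00308, adjusted p = 0.221). Without the libraries titled icKO 4 and 5, the 2 farthest from the Trpv1 median, r was 0.810. Trpv1 with Trpm2 in the same libraries had r 0.840 (exact permutation p = 0.00253, adjusted p = 0.0581; Spearman rho 0.783, exact permutation p = 0.0172, adjusted p = 0.248) and 0.896 without those 2. Trpv1 with Trpv2 had r 0.888 (exact permutation p = 0.00156, adjusted p = 0.0563; Spearman rho 0.783, exact permutation p = 0.0172, adjusted p = 0.248), which fell to 0.564 without the same 2 libraries. In noninjected libraries the relation of Trpv1 with Trpm2 (r 0.782, permutation p = 0.0238, adjusted p = 0.102; Spearman rho 0.321, permutation p = 0.370, adjusted p = 0.720) rested on the animals titled control 4 and 2, and without them r was -0.01.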

How the data were processed

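Poly(A) RNA of mouse lumbar dorsal root ganglia was sequenced from non-stranded libraries, per the labels' protocols. The authors deposited whole-number counts per Ensembl gene for each library. Tools listed in the submitters' processing notes were the demultiplexer bcl2fastq (2.20.0.422), the aligner STAR (2.7.8a) and the counter featureCounts (2.0.1), with GRCm39 as the genome build. Counting options were not given in the sources used here.

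Of 55416 identifiers, 52083 (94.0%) were named from GENCODE M21, which is on an earlier build. Names, lengths and the exon overlaps of the members were taken from it, so those overlaps rest on coordinates of the earlier build. Named genes held 96.06% to 99.59% of the counts. The members and lists were chosen with earlier results of these data known. The 19 libraries with over 1000000 counts were grouped by the genotype word of the deposited name and by injection, with the titles and the 6 agreeing animals as alternatives. edgeR 4.0.16 (R 4.3.3; TMM, filterByExpr, robust quasi-likelihood F test, sex as covariate) was fitted to animal totals and to the 19 libraries, with Benjamini-Hochberg adjustment over all genes and a threshold of 0.05. SE is the fold change divided by the square root of F. Prdm12 was tested by exact permutation. DESeq2 1.42.0 and limma 3.58.1 (voom with duplicateCorrelation) were alternatives, and the models were tested on simulated counts. Named genes were the 9 members, Prdm12, list genes past the threshold, and the 3 genes most like each member. Results of some list genes are not reported here.

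Both libraries of an animal share its number, and the numbers were taken to pair samples. Deviations of an animal's libraries from their group means correlated between -0.05 (titled control 1) and 0.50 over 9 animals. Libraries of different animals were not compared in this way, so the correlations do not test the pairing. Replicate libraries differed by more than counting noise (chi-square per degree of freedom 6.76 to 91.3), and none was a duplicate.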

Additional observations from a re-analysis of the deposited data

Results flagged for a closer look

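Of 36 group values examined for a library standing apart (9 members in 4 groups of deposited name and injection), 1 did, where chance gives about 1 in 20. In the noninjected libraries named icKO, Trpv1 was at 363 CPM in the animal titled control 4, against 152 to 195 CPM in the other 4. Its gap to the next library was 0.80 of the whole range, above the critical value of 0.71 for 5 samples. The same animal is titled control and its Prdm12 was at 38.1 CPM, the highest of the 5.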

How the results depend on the processing

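Over the 54 member results (9 members in 6 comparisons) 1106 values were recomputed: 1049 stayed on their side of the threshold with a called direction unchanged, 25 lost a call and 32 gained one, and 63 values past the threshold in neither fit changed sign. No called value reversed. The causes were not tested. Counts of called genes, from 209 (animal totals), 1504 (noninjected) and 697 (formalin), became 806, 2261 and 1223 with DESeq2, 1811, 2421 and 2129 with no low-count filter, and 0, 0 and 0 by title. Without the icKO 5 formalin library they were 341, 2385 and 205, without both the icKO 4 and icKO 5 formalin libraries 461, 2596 and 73, and with the neuron-marker scaling 104, 2420 and 772. The 6 agreeing animals gave 831 (noninjected) and 1615 (formalin). The formalin count was 1052 without the sex term and 29 from the formalin libraries alone. With the animal as a random replicate block (limma-voom, correlation 0.174) 1195 and 324 genes were called in noninjected and formalin ganglia, and with the animal as a fixed replicate block the 3 formalin responses kept 0, 0 and 0 calls. The response in control, 0, became 430 with no filter. The response in icKO, 0, became 1120 (DESeq2), 2203 (no filter), 448 (6 animals) and 3829 (neuron-marker scaling). The interaction, 0, became 850, 2519, 65 and 4202 in the same order. Leaving out 1 animal at a time gave 76 to 278 calls in totals (fewest without control 3), 345 (without icKO 1) to 2129 in noninjected, 66 (without control 3) to 1485 (without control 1) in formalin, 0 to 1990 in the icKO response and 0 to 1762 in the interaction, the last 2 maxima both without control 1. The Prdm12 difference of -1.94 was -0.72 by title and -2.21 in the 6 agreeing animals (exact permutation p = 0.100, the smallest that 20 splits allow). Depth limits Trpc5 most, at 8 to 100 counts per library.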
